A study of Mus musculus with 36 samples.

Results

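The response to fluid flow that is shared by fibroblasts of 3 fetal mouse tissues was described from all 36 arrays of the series, which make up 18 libraries. A library here means 2 arrays, chip A and chip B of the Affymetrix MOE430 set, with the same group and replicate number. Primary fibroblasts of cornea, skin and tendon came from CD1 mouse fetuses at 19 days post conception and had no genetic change. After 5 population doublings they were seeded on gelatin-coated glass. For 14 h they were kept either in a single-well plate under still medium (static, 0 dyn/cm2) or in a parallel plate chamber under flow (0.1 dyn/cm2), in the same medium. The vessel thus changed together with the flow, and their effects cannot be told apart. In what follows, flow means flow in that chamber. Each tissue has 3 static and 3 flow libraries, so 9 static libraries were compared with 9 flow libraries with the tissue as a block. The labels name a time-mated mouse and call the replicates biological, but they do not say that replicates came from separate litters. The p-values therefore measure the spread between these samples, which may be technical.

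Cells meet oxidants and reactive chemicals with a set of enzymes that the transcription factor NRF2 switches on. In resting cells KEAP1 marks NRF2 for destruction. When the cysteines of KEAP1 are modified, NRF2 gathers in the nucleus and binds antioxidant response elements with a small MAF protein, and glutathione, haem and NADPH enzymes are made. Unfolded proteins call on another factor, HSF1, which raises the chaperones. Fibroblasts build the collagen matrix of cornea, dermis and tendon, and in tendon and other tissues they are exposed to slow fluid movement through that matrix.

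The values are log2 levels, and a difference of 1 is a doubling of the signal. A gene was said to rise or fall when the flow term of a limma fit with tissue as a block had an adjusted p under 0.05 over 18193 genes, and every adjusted p below comes from that fit unless another is named. Errors after ± are standard errors of that fit. Levels of different genes are not compared, since each probe set has its own brightness.

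The libraries carried the identity of their tissue. The 13 fibroblast markers had a mean level between 11.3 and 11.9 in every library, and 1 of them lay below the median of its chip. Markers of other cells lay mostly below the chip median, 9 of 10 for endothelium, 9 of 11 for macrophages and leukocytes, 11 of 12 for skeletal muscle and 10 of 14 for epithelium. The mean levels of these 4 lists differed by at most 0.09 between flow and static in any tissue. Fewer lay below it for chondrocytes and bone, 6 of 9, and for neural crest, glia and melanocytes, 4 of 7. Averaged over all libraries, 5 of 9 tendon markers and 5 of 10 markers of the corneal stroma also lay below the chip median. So did 3 of 12 markers of dermis and trunk or limb mesenchyme. Of 6 adipocyte markers 5 lay below the chip median, and their mean differed by 0.12 in skin, by 0.05 in tendon and by -0.04 in cornea. The smooth muscle and pericyte markers, which fibroblasts also express in part, were lower under flow by 0.13 to 0.20. The description of the tendon flow arrays names cornea, while their title and source name tendon. The mean of 9 tendon markers was 8.10 to 8.33 in these libraries and 7.42 to 7.97 in the cornea flow libraries. The mean of 10 markers of the corneal stroma was 6.55 to 6.66 and 7.54 to 7.94, respectively, and the arrays were taken as tendon. Tendon static 3 stood apart on the second principal component, at -43.01 against -15.94 to 21.93 for the others. The gap between 3' and 5' control probe sets, which grows as labelled RNA gets shorter, was wider under flow on chip B, by 0.214 for Gapdh and by 0.282 for beta-actin (exact permutation within tissues, two-sided, p = 0.0465 and 0.053, both 0.106 adjusted over 4 tests). With the beta-actin gap as a covariate 273 genes passed, 166 of them among the 212 described next. On chip A the gap was wider by 0.099 for Gapdh and by 0.214 for beta-actin (p = 0.301 and 0.1303, adjusted 0.301 and 0.174, same exact permutation test). Of the named genes 13 lost their call in the covariate fit.

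Flow raised 146 genes, 0.803% of those tested, and lowered 66, or 0.363%. The changes were mostly small, with a median of 0.49 for the rises and -0.55 for the falls. Of the rises 59 exceeded 1.5-fold, 20 exceeded 2-fold, 5 exceeded 3-fold and 1, that of Hmox1, exceeded 4-fold. Of the falls 28 exceeded 1.5-fold and 2 exceeded 2-fold, those of Cxcl5 and Cebpd. When the test asked for a change beyond 1.2-fold (limma treat), 22 genes passed, 0.121% of those tested, and all 22 were rises. The share of all 18193 genes with a value above 0 was 46.1%, and their median was -0.01.

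The scan records carry a date beside 13 of the libraries. In 8 static and flow pairs of 1 tissue the libraries share that date or, for the replicate 1 pairs of skin and tendon, the undated scan batch. With this date as a block in place of tissue, 1437 genes passed, 968 higher (5.32% of those tested) and 469 lower (2.58%), and the 212 were among them. The direction of all 212 was the same in that fit. Across the 8 pairs, 139 of the 146 rising genes were higher under flow in every pair and 51 of the 66 falling genes lower in every pair, against 6.89% of all genes in 1 direction or the other. These pairs are 16 of the 18 libraries that gave the call, so this is a description of it and not a further test. In the 13 libraries of scan batch 2 alone 50 genes passed, 48 of them among the 212. Without tendon flow 1, 141 genes passed.

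**Figure D1:**
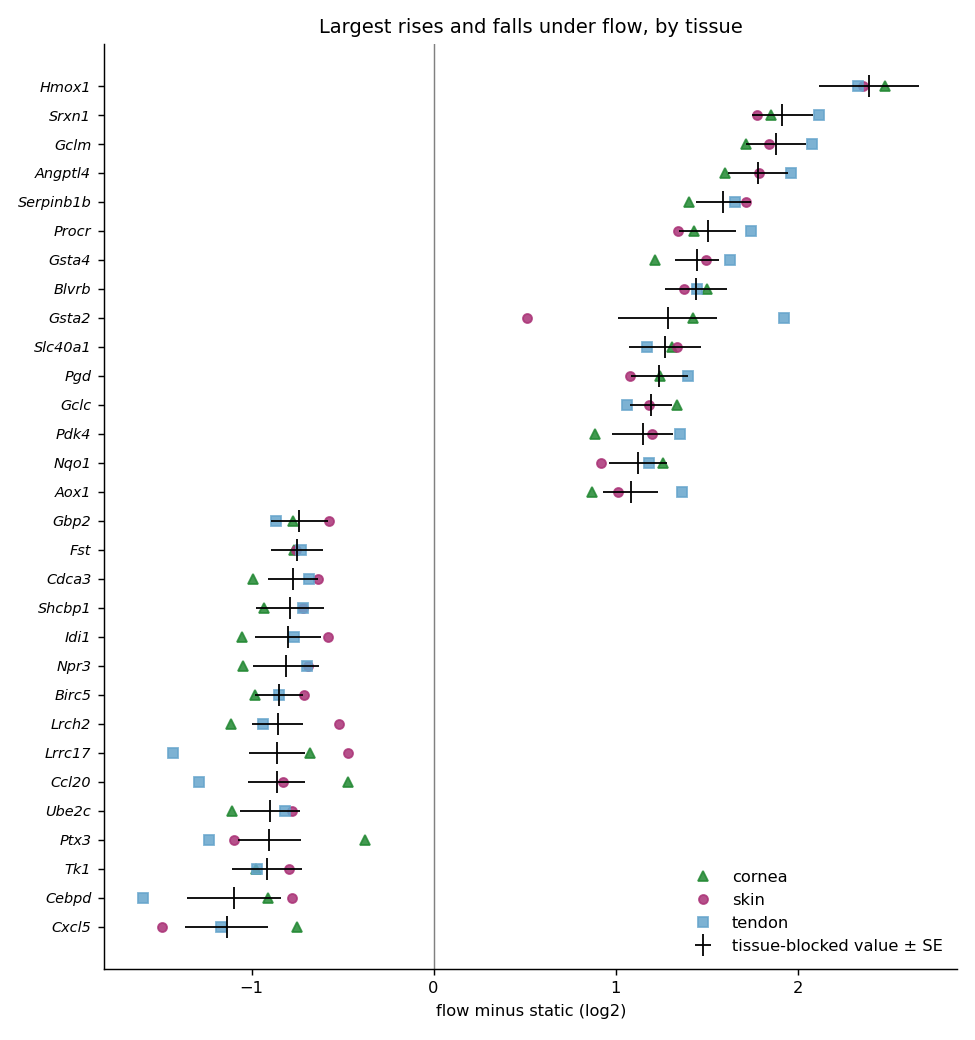
Flow minus static (log2, horizontal axis) of the 15 largest rises and 15 largest falls; triangles, circles and squares are cornea, skin and tendon (3 flow against 3 static libraries each), and the bar is the tissue-blocked value with its SE. Hmox1 lies farthest right at 2.39, and the falls reach -1.14 at Cxcl5.

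The haem and iron genes held the largest single rise. Haem oxygenase breaks haem into biliverdin, carbon monoxide and iron, and the gene of its inducible form, Hmox1, is a classic target of NRF2. The log2 levels of Hmox1 were 8.42, 9.15 and 10.66 in static and 11.87, 12.01 and 11.79 in flow cornea libraries. They were 9.40, 8.78 and 9.25 in static and 11.72, 10.71 and 12.08 in flow skin, and 9.36, 8.59 and 8.51 in static and 12.08, 11.21 and 10.17 in flow tendon libraries. Every flow library lay above every static library of its tissue, and cornea static 3 was the highest of the static libraries. Hmox1 rose 5.25-fold (2.39 ± 0.27, adjusted p = 7.96e-05), by 2.48 in cornea, 2.36 in skin and 2.33 in tendon.

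Other genes of haem and iron handling rose as well. Blvrb, a biliverdin reductase, rose by 1.44 ± 0.17 and had values of 1.5 in cornea, 1.38 in skin and 1.45 in tendon. Its level ran from 8.19 to 9.22 (median 8.63) in the 9 static libraries and from 9.26 to 10.72 (median 10.41) in the 9 flow libraries, so the pooled groups did not overlap. Slc40a1, ferroportin, which exports iron from the cell, rose by 1.27 ± 0.20. Another probe set of Slc40a1 gave 0.21. Fth1, the heavy chain of the iron store ferritin, rose by 0.39 ± 0.07. Slc48a1, which carries haem out of the lysosome, rose by 1.03 ± 0.10 and Abcb6, a porphyrin transporter, by 0.93 ± 0.08. Alas1, the entry enzyme of haem synthesis, rose by 0.68 ± 0.10. Of 20 measured genes of this list 7 rose and 0 fell, and the list's median was 0.09. The 13 others lay between -0.21 and 0.17, among them the constitutive oxygenase Hmox2 (0.10) and the synthesis enzymes Fech (0.16) and Ppox (-0.15). Heph, a ferroxidase that works with ferroportin and was not on the list, rose by 0.62 ± 0.12; it was picked after its value was seen.

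Glutathione is made in a pair of steps, and the enzyme of the first is built from Gclc, the catalytic chain, and Gclm, the modifier. Gclm had log2 levels of 10.10, 9.68 and 10.06 in static and 11.68, 12.46 and 10.85 in flow cornea libraries. They were 9.66, 9.86 and 9.78 in static and 11.37, 11.47 and 11.99 in flow skin, and 9.32, 9.32 and 8.96 in static and 11.48, 11.50 and 10.85 in flow tendon libraries. In each tissue the lowest flow library lay above the highest static library. Gclm rose 3.68-fold (1.88 ± 0.16, adjusted p = 4.37e-06). Gclc rose 2.29-fold (1.19 ± 0.11), by 1.34 in cornea, 1.18 in skin and 1.06 in tendon. Slc7a11, the cystine importer, rose by 1.03 ± 0.22 and Gsr, which returns oxidised glutathione to its reduced form, by 0.67 ± 0.15. Leaving out 1 library ended the call of Slc7a11 in 5 of 18 refits and that of Gsr in 10. The second enzyme of the synthesis, Gss, did not pass (0.54, adjusted p = 0.11, and 9.24e-04 with the date as a block). The partner chain of the importer, Slc3a2, did not pass either (0.31, adjusted p = 0.23, and 0.0131 with the date as a block). Of 11 measured genes 4 rose and 0 fell, with a median of 0.31.

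Glutathione transferases join glutathione to reactive molecules. Gsta4, which favours the aldehydes of lipid peroxidation, had a level from 10.66 to 12.11 (median 10.94) in the 9 static libraries and from 11.78 to 13.25 (median 12.57) in the 9 flow libraries. The cornea was highest in both states, so the pooled ranges overlap, while within each tissue all flow libraries were above all static ones. Gsta4 rose by 1.45 ± 0.12 (2.73-fold, adjusted p = 4.37e-06). Gstm1 rose by 0.74 ± 0.11, Gsta3 by 0.51 ± 0.09 and Gstp1 by 0.38 ± 0.07. Gsta2 rose by 1.29 ± 0.27, with unequal values of 1.43 in cornea, 0.51 in skin and 1.92 in tendon, and with the beta-actin covariate its adjusted p was 0.0565. These transferases have near-identical relatives, and probe sets of the alpha class can read more than 1 of them. Of 18 measured transferase genes 5 rose and 0 fell, and the median was 0.09. With the date as a block 7 of the 18 were higher and 1 lower, beside 5.32% and 2.58% of all genes.

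Srxn1 encodes sulfiredoxin, which repairs over-oxidised peroxiredoxins. Its log2 levels were 8.41, 8.61 and 8.57 in static and 10.58, 10.97 and 9.61 in flow cornea libraries. They were 9.10, 8.88 and 9.17 in static and 10.98, 10.18 and 11.31 in flow skin, and 8.76, 8.59 and 8.48 in static and 11.19, 10.57 and 10.42 in flow tendon libraries. No flow library overlapped a static library of any tissue. Srxn1 rose 3.78-fold (1.92 ± 0.17, adjusted p = 4.37e-06). The mean of its probe sets rose less, by 0.89. Txnrd1, thioredoxin reductase, rose by 1.01 ± 0.20, and was highest in tendon (1.54) and lowest in skin (0.65). The mean over the probe sets of Txnrd1 was 0.39 and did not pass (adjusted p = 0.246). Cat, catalase, rose by 0.81 ± 0.16 and Sod1, the cytosolic superoxide dismutase, by 0.32 ± 0.06. Other probe sets of Sod1 ran from -0.22 to 0.32, and the mean of its chip A probe sets was 0.05 (adjusted p = 0.698). The substrate of the reductase, Txn1, had a value of 0.19 (adjusted p = 0.1, and 0.02645 with the date as a block). Of 19 genes 4 rose and 0 fell, with a median of 0.00. With the date as a block 5 of the 19 were higher and 1 lower, beside 5.32% and 2.58% of all genes.

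The reducing power for these reactions is NADPH, and the pentose phosphate pathway supplies much of it. Pgd, whose enzyme makes NADPH there, rose by 1.24 ± 0.16 and Taldo1, transaldolase, by 0.90 ± 0.12. Taldo1 had nearly equal values of 0.94 in cornea, 0.88 in skin and 0.89 in tendon. Me1, the cytosolic malic enzyme and another NADPH source, rose by 0.43 ± 0.09. Me3, a mitochondrial malic enzyme outside the list, fell by 0.39 (SE 0.05); it was picked after its value was seen. Among enzymes that spend NADPH, Nqo1, a quinone reductase, rose by 1.12 ± 0.16, Cbr3, a carbonyl reductase, by 0.90 ± 0.09 and Ptgr1, a reductase of prostaglandins and alkenals, by 0.71 ± 0.13. Aox1, aldehyde oxidase, rose by 1.08 ± 0.15. Aldh3a1, an aldehyde dehydrogenase abundant in cornea, rose by 0.58 ± 0.12, by 0.83 in cornea, 0.60 in skin and 0.31 in tendon. Of 22 genes 8 rose and 0 fell, and 19 had a value above 0 (median 0.27).

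Other known NRF2 targets and regulators moved less. Pir, pirin, had the closest tissue values of the 212 genes, with 0.86 in cornea, 0.85 in skin and 0.85 in tendon. The drug and glutathione-conjugate pumps Abcc1 (0.85 ± 0.15) and Abcc4 (0.95 ± 0.20) rose, as did Sqstm1 (0.74 ± 0.12), a cargo receptor of autophagy that also binds KEAP1. With the beta-actin covariate the adjusted p of Abcc4 was 0.0749. The mean of the probe sets of Abcc1 was 0.62 and did not pass (adjusted p = 0.0925). The genes of the regulators themselves did not pass with tissue as a block. The value was near 0 for Nfe2l2, which encodes NRF2, 0.23 for Keap1 and 0.28 for the repressor Bach1. With the date as a block Bach1 passed (0.33, adjusted p = 0.0319), while Nfe2l2 and Keap1 did not (adjusted p = 0.981 and 0.158). In that fit Mafg, a small MAF gene, was higher (0.36, adjusted p = 0.0159) and Bach2 lower (-0.31, adjusted p = 0.0257). Of 21 genes 4 rose and 0 fell (median 0.09).

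**Figure D2:**
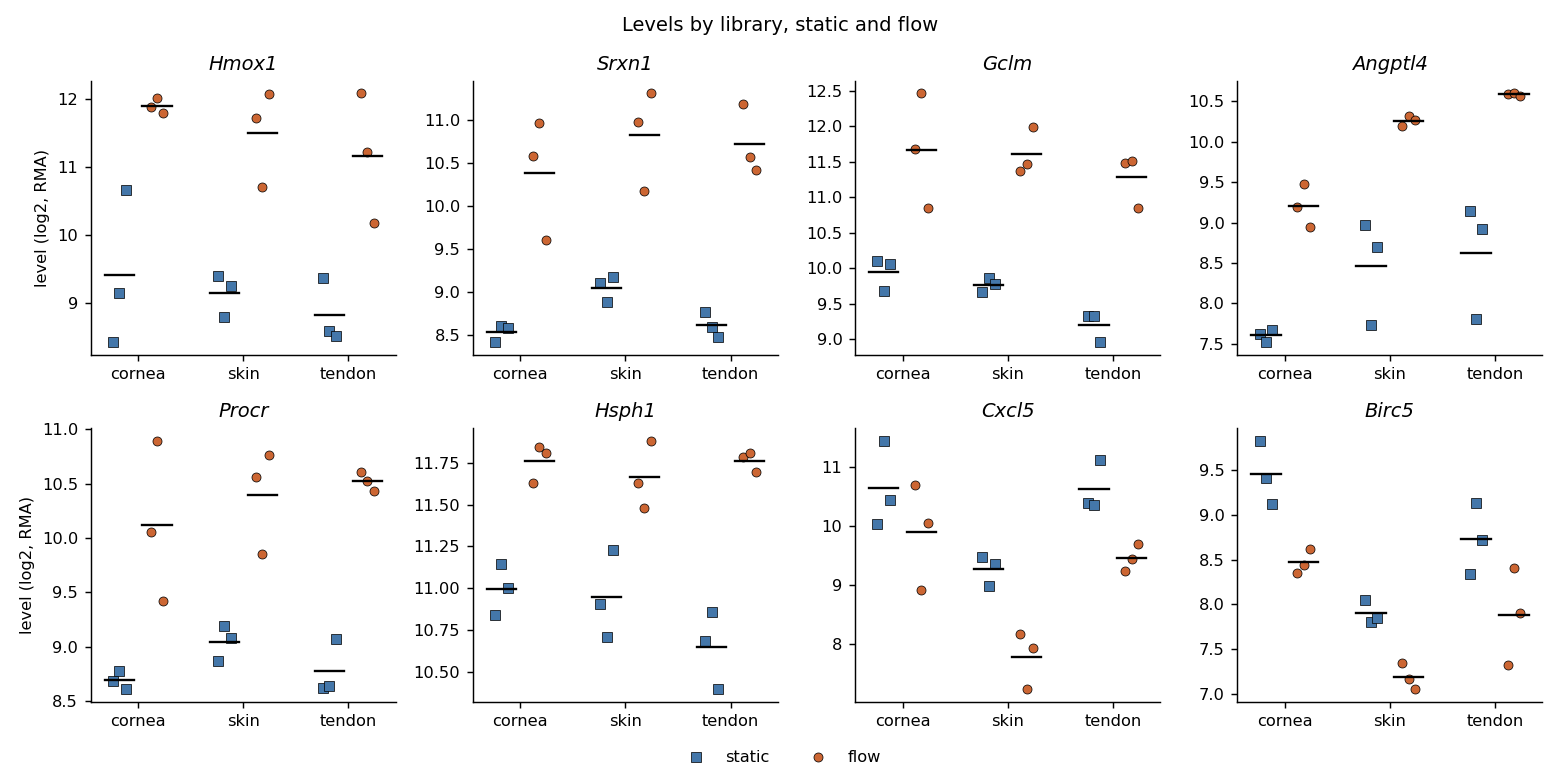
Log2 level (vertical axis) of 8 genes in each library, with squares for static, circles for flow and bars for the mean of 3. In Srxn1, Gclm, Angptl4, Procr and Hsph1 the circles lie above the squares in all 3 tissues, and in Cxcl5 the cornea circles and squares overlap.

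Heat shock chaperones rose in the largest number of any list, 12 of 28 with 0 falls, and 24 of the 28 had a value above 0 (median 0.29). Hsph1 encodes an HSP110 protein that recharges HSP70. The levels of Hsph1 (log2) were 10.84, 11.14 and 11.0 in static and 11.63, 11.84 and 11.81 in flow cornea libraries. They were 10.91, 10.71 and 11.23 in static and 11.63, 11.48 and 11.88 in flow skin, and 10.69, 10.86 and 10.39 in static and 11.79, 11.81 and 11.69 in flow tendon libraries. The libraries of the states did not overlap in any tissue. Hsph1 rose by 0.87 ± 0.09 (adjusted p = 2.44e-05). Hspa1a, the inducible HSP70, rose by 1.03 ± 0.19, with 1.64 in cornea, 0.87 in skin and 0.59 in tendon. Its near-identical neighbour Hspa1b had a value of 0.56 (adjusted p = 0.0923, and 0.00107 with the date as a block), and the array may not separate the pair. Co-chaperones of HSP70 and HSP90 rose together with them. They were Hspa4l (0.79), St13 (0.61), Fkbp4 (0.61), Bag3 (0.60), Ahsa2 (0.51), Ahsa1 (0.49), Chordc1 (0.43) and Dnaja1 (0.38). Of the 12 calls 8 held in all 18 refits without 1 library, while Fkbp4 and Dnaja1 lost theirs in 12 and Bag3 in 14. The small heat shock proteins Cryab (0.62) and Hspb1 (0.48) rose, while the mitochondrial chaperones Hspd1 (0.27) and Hspe1 (0.15) did not pass. Of 27 genes of the stress response of the endoplasmic reticulum 0 passed, with values from -0.19 to 0.39. Of 33 proteasome subunits 0 passed, although 27 had a value above 0 (median 0.11). Among 13 p53 targets and 25 genes of glycolysis and hypoxia 0 passed as well. At an unadjusted limma p under 0.05, 2 genes of the endoplasmic reticulum list, 5 proteasome subunits, 1 p53 target and 4 glycolysis genes were higher, and 2 glycolysis genes were lower, where 7.35% of all genes were higher and 4.95% lower at that level. With the date as a block 2, 5, 2 and 1 genes of these lists were higher and 1 glycolysis gene was lower, beside 5.32% and 2.58% of all genes.

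Promoter sequences show what the letters near the start sites of rising genes look like. Windows from 250 bases before to 50 bases after the start (RefSeq, build GRCm38.p6) were found for 119 of the 146 rising genes and 48 of the 66 falling genes. The core of the antioxidant response element was searched as TGACNNNGC on both strands. It was in a window of 21.8% of the rising genes, 16.7% of the falling genes and 16.1% of the 14368 tested genes with a window, and in 12.4% of all 32851 windows. The motif is thus common in windows of this length, and its presence is a description, not a binding site. The heat shock element was searched as GAANNTTCNNGAA on both strands. It was in 3 of the 119 rising genes (2.52%), 0 of the 48 falling genes and 0.612% of the tested genes. The 3 were Hsph1, Chordc1 and Uchl1, a ubiquitin hydrolase. Both motifs can overlap with others. The stretches below are shown as examples, chosen after the matches were seen, because 4 of these genes belong to the antioxidant and chaperone results above and Procr is among the largest rises. Capitals mark the motif, on the plus strand of the gene for Procr and on the other strand for Gclm, Txnrd1 and Pir. In Chordc1 the capitals cover 3 overlapping matches around the start. The Gclm stretch is chr3:122245388-122245467, that of Procr chr2:155751028-155751107, that of Txnrd1 chr10:82859079-82859158, that of Pir chrX:164269182-164269261 and that of Chordc1 chr9:18292261-18292289, and all 5 genes lie on the + strand.
Gclm: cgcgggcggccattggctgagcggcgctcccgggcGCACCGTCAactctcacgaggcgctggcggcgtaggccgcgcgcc
Procr: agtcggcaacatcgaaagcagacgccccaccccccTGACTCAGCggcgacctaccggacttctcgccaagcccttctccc
Txnrd1: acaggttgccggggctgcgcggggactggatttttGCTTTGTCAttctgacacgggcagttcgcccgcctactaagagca
Pir: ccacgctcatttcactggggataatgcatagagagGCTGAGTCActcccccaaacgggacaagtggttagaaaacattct
Chordc1: cgGAACGTTCGGGAAAATTCCTGAAgcag

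Of 18 measured lipid genes that PPAR receptors control 5 rose and 1 fell. Angptl4 encodes a secreted inhibitor of lipoprotein lipase. Its levels (log2) were 7.63, 7.52 and 7.67 in static and 9.20, 9.48 and 8.94 in flow cornea libraries. They were 8.97, 7.73 and 8.70 in static and 10.19, 10.31 and 10.27 in flow skin, and 9.14, 7.81 and 8.92 in static and 10.59, 10.59 and 10.56 in flow tendon libraries. The flow libraries of skin and of tendon lay close together, while their static libraries spread by more than 1. Angptl4 rose 3.44-fold (1.78 ± 0.16, adjusted p = 6.27e-06). Another probe set of Angptl4 gave 0.20. Pdk4, the kinase that holds back pyruvate dehydrogenase, rose by 1.15 ± 0.17, Cpt1a, which admits fatty acids to mitochondria, by 0.61 ± 0.11 and Acadl, an enzyme of their oxidation, by 0.69 ± 0.11. Plin2, which coats lipid droplets, rose by 0.68 ± 0.09. Fabp5, a fatty acid binding protein of the same list, fell by 0.72, with -0.40 in cornea, -0.74 in skin and -1.02 in tendon, and lost its call in 10 of 18 refits without 1 library. The other 12 genes did not pass (list median 0.09), the receptor gene Pparg among them (0.11).

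Genes of cholesterol synthesis lay lower. Of 26 measured genes of cholesterol and fatty acid synthesis 24 had a value below 0 (median -0.26), while 2 passed. Idi1, an isomerase of the isoprenoid route, had a level from 10.44 to 11.61 (median 11.08) in the 9 static libraries and from 9.63 to 11.33 (median 10.36) in the 9 flow libraries. It fell by 0.80 (SE 0.18, adjusted p = 0.0353), and the call ended in 12 of 18 refits without 1 library. Mvk, mevalonate kinase, fell by 0.43 and lost its call in 6. With the beta-actin covariate neither passed (adjusted p = 0.0688 for Idi1 and 0.0598 for Mvk). Msmo1 (-0.67), Lss (-0.45) and Sqle (-0.41), later steps of the route, did not pass. With the date as a block 13 of the 26 were lower and 0 higher, beside 2.58% and 5.32% of all genes.

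Inhibitors of proteases and a clotting receptor were among the largest rises. Procr encodes the endothelial protein C receptor, which helps to activate the anticoagulant protein C. In log2 units its levels were 8.69, 8.78 and 8.61 in static and 10.06, 10.90 and 9.42 in flow cornea libraries. They were 8.87, 9.19 and 9.08 in static and 10.56, 9.86 and 10.77 in flow skin, and 8.62, 8.64 and 9.07 in static and 10.60, 10.52 and 10.44 in flow tendon libraries. Flow and static libraries did not overlap in any tissue. Procr rose 2.84-fold (1.51 ± 0.16, adjusted p = 2.01e-05) and was the only 1 of 16 measured genes of the coagulation and plasminogen list to pass. Serpinb1b, a cytosolic protease inhibitor, rose 3.02-fold (1.59 ± 0.15), by 1.41 in cornea, 1.72 in skin and 1.66 in tendon. Its relatives Serpinb9b (1.04 ± 0.15), Serpinb1a (0.84 ± 0.20) and Serpinb9, an inhibitor of granzyme B (0.78 ± 0.12), rose as well. These genes are close copies of one another and share sequence. Serpinb1a passed narrowly and lost its call in 15 of 18 refits and with the covariate (adjusted p = 0.107). Of 15 genes of the list 4 rose and 0 fell (median 0.17).

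Genes of dividing cells lay lower under flow, though few passed. All 34 measured mitosis genes had a value below 0 (median -0.48), and 4 of the 34 passed. Birc5, survivin, guards chromosome separation and the survival of dividing cells. Birc5 had log2 levels of 9.83, 9.41 and 9.12 in static and 8.35, 8.44 and 8.62 in flow cornea libraries. They were 8.05, 7.81 and 7.85 in static and 7.35, 7.17 and 7.05 in flow skin, and 8.34, 9.13 and 8.72 in static and 7.33, 8.41 and 7.91 in flow tendon libraries. In cornea and skin the states did not overlap, and in tendon flow 2 lay above static 1. Birc5 fell by 0.85 (SE 0.13, adjusted p = 0.0021). Shcbp1, which is expressed in dividing cells, fell by 0.79 and lost its call in 13 of 18 refits without 1 library. Ube2c, which tags mitotic cyclins for destruction, fell by 0.90 and Cdca3, a trigger of mitotic entry, by 0.77. Other probe sets of Cdca3 gave -0.12 each. Cenpp, a centromere protein, fell by 0.61, with -1.01 in cornea, -0.11 in skin and -0.71 in tendon. Other probe sets of Cenpp gave -0.47 and 0.04, and the mean of its probe sets was -0.34 and did not pass (adjusted p = 0.0549). Of 32 genes of S phase 30 had a value below 0 (median -0.24), and Tk1, thymidine kinase, was the only 1 to pass (-0.91, adjusted p = 0.0213). Ccne2, a cyclin of S phase entry, had the lowest value at -1.09 and did not pass (adjusted p = 0.0877, and 2.25e-04 with the date as a block). With the date as a block 26 of the 34 mitosis genes and 12 of the 32 S phase genes were lower, and 0 of either list higher. Over all genes 2.58% were lower and 5.32% higher in that fit. In bulk cultures fewer dividing cells and less RNA per dividing cell cannot be told apart.

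Inflammatory genes fell in small number. Cxcl5 attracts neutrophils and had the largest fall. Cxcl5 levels (log2) were 10.03, 11.45 and 10.44 in static and 10.70, 8.92 and 10.06 in flow cornea libraries. They were 9.48, 8.99 and 9.36 in static and 8.18, 7.24 and 7.94 in flow skin, and 10.39, 10.36 and 11.12 in static and 9.23, 9.44 and 9.69 in flow tendon libraries. In skin and tendon all flow libraries were below all static ones, and in cornea they overlapped. Cxcl5 fell by 1.14 (2.2-fold, SE 0.23, adjusted p = 0.0141), and with the beta-actin covariate its adjusted p was 0.0509. Ccl20, which draws lymphocytes and dendritic cells, fell by 0.86, with -0.47 in cornea, -0.83 in skin and -1.29 in tendon. These were 2 of 25 chemokines. Ptx3, a secreted pentraxin of innate defence, fell by 0.90, with -0.38 in cornea, -1.09 in skin and -1.24 in tendon, and was the only 1 of 29 genes of its list to pass. Cebpd, a transcription factor of the acute phase response, fell by 1.09, but lost its call in 12 of 18 refits and with the beta-actin covariate (adjusted p = 0.076). Its other probe set gave -0.21, and the mean of its probe sets fell less, by 0.65 (adjusted p = 0.0233). Gbp2, an interferon-induced GTPase, fell by 0.74 and Ifih1, a sensor of viral RNA, by 0.34, as 2 of 28 interferon-stimulated genes. Ifih1 lost its call in 15 of 18 refits and with the covariate (adjusted p = 0.0554), and Gbp2 in 2. Osmr, a receptor of oncostatin M, fell by 0.39. Il6 had a value of -0.75 and did not pass (adjusted p = 0.342).

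Signals and matrix genes gave few calls. Fst, follistatin, which blocks activin, fell by 0.75 with -0.77 in cornea, -0.76 in skin and -0.73 in tendon, and its other probe set gave -1.02. Bmp6, a bone morphogenetic protein, rose by 0.34 ± 0.08 and Pmepa1, a TGF-beta target that damps the pathway, by 0.43 ± 0.10. Leaving out 1 library ended the call of Bmp6 in 13 of 18 refits and that of Pmepa1 in 9, and the mean of the probe sets of Pmepa1 was 0.41 (adjusted p = 0.127). Vcan, the large proteoglycan versican, fell by 0.56 and Adamts9, a protease that cuts versican, by 0.37. The mean over the chip A probe sets of Vcan was -0.35 and did not pass (adjusted p = 0.0638), nor did that of the chip B probe sets of Adamts9 (-0.17, adjusted p = 0.0936). Npr3, the clearance receptor of natriuretic peptides, fell by 0.81, and Nppb, a natriuretic peptide picked after its value was seen, by 0.56. Npr3 lost its call in 9 of 18 refits and with the covariate (adjusted p = 0.0848), and the mean of its probe sets was -0.37 (adjusted p = 0.0638). Lrrc17, whose product is secreted and has leucine-rich repeats, fell by 0.86 and Lrch2 by 0.86. The other probe set of Lrrc17 gave 0.01. The list of 22 fibrillar and associated collagens held 0 genes past the threshold and ran from -0.39 to 0.23. There were also 0 calls among 23 integrin and focal adhesion genes, 29 contractile genes, 15 elastic fibre genes, 19 genes of collagen folding and cross-linking, 28 ribosomal proteins and 37 genes of the respiratory chain. The contractile list held 8 genes that were lower at an unadjusted limma p under 0.05 and 0 that were higher, and 26 of its 29 values were below 0. Over all genes 4.95% were lower and 7.35% higher at that level. Each of the other 6 lists held at most 3 genes at that level. With the date as a block 7 contractile genes were lower, Cnn1 (-0.55, adjusted p = 8.78e-04), Myl9 (-0.49) and Mylk (-0.65) among them. In that fit 2 collagen genes were lower, 1 integrin list gene was higher and 2 were lower. Of the cross-linking genes 1 was higher and 1 lower, and 1 ribosomal protein was higher. Over all genes 5.32% were higher and 2.58% lower in that fit.

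Genes known to answer flow in endothelium were set beside these. Endothelin 1, Edn1, a vasoconstrictor that strong laminar shear is known to lower in endothelial cells, had a level from 7.21 to 9.09 (median 7.91) in the 9 static libraries and from 6.76 to 7.85 (median 7.32) in the 9 flow libraries. It fell by 0.69 (SE 0.13, adjusted p = 0.00853), with -0.76 in cornea, -0.86 in skin and -0.44 in tendon. It was the only 1 of 22 measured shear genes of endothelium to pass. Klf2 (-0.02) and Klf4 (-0.25), the transcription factors of the laminar flow response there, did not pass, nor did Nos3 (-0.08) and Thbd (-0.09). With the date as a block 2 genes of this list were higher and 4 lower, Klf4 among them (-0.23, adjusted p = 0.0477). Of 23 immediate early genes and 27 targets of YAP and TAZ, which respond to stretch and stiffness, 0 passed. At an unadjusted limma p under 0.05, 3 immediate early genes were higher and 1 lower, and 3 YAP and TAZ targets higher and 2 lower. Of 18 mechanosensitive channels and connexins 0 passed, with 2 higher and 1 lower at that level and 0.23 for the stretch channel Piezo1. Over all genes 7.35% were higher and 4.95% lower at that level. With the date as a block 2 immediate early genes were higher and 4 lower, and 1 YAP and TAZ target higher and 3 lower. In that fit 1 channel or connexin gene was higher and 1 lower, beside 5.32% and 2.58% of all genes.

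**Figure D3:**
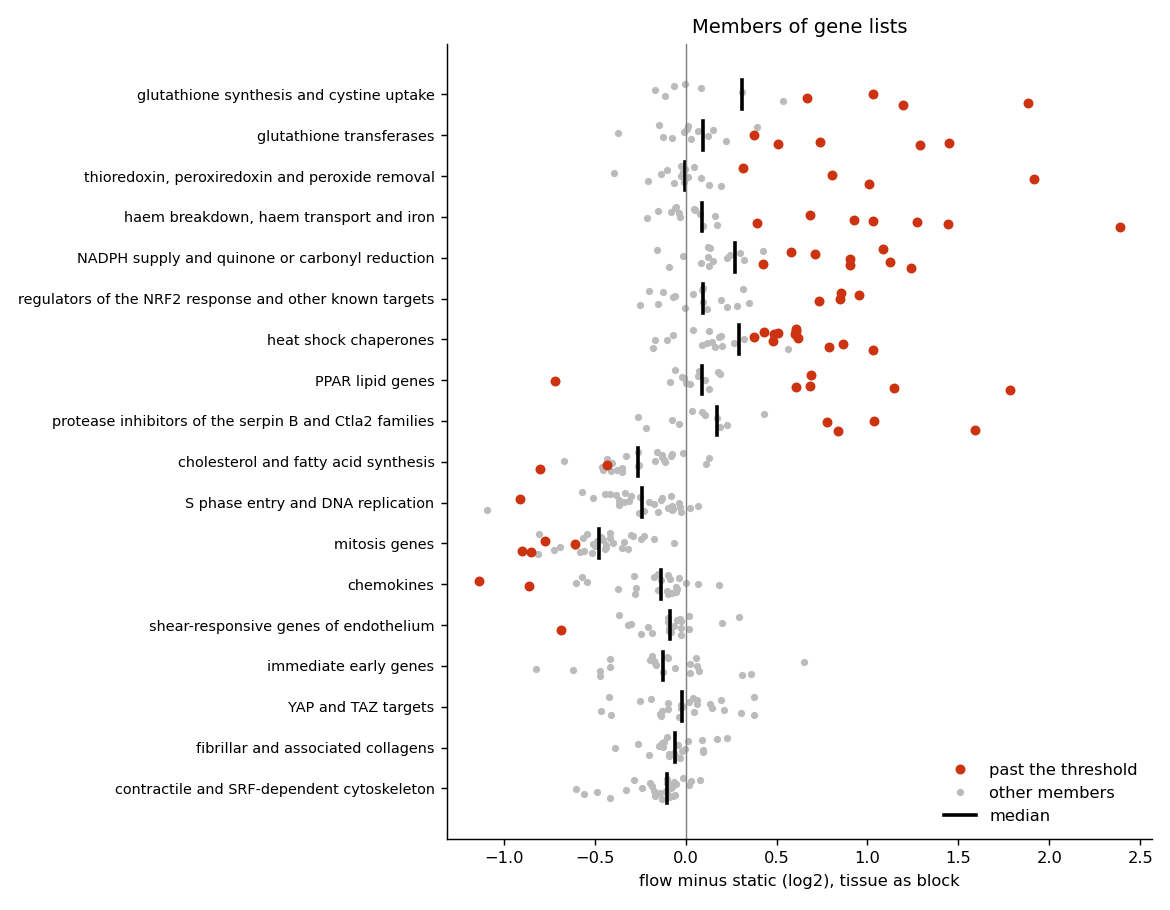
Flow minus static with tissue as a block (log2, horizontal axis) of every measured member of 18 gene lists; large points passed an adjusted p of 0.05, small points did not, and the bar is the list's median. The 7 upper lists hold only rises among the large points, and every mitosis gene lies left of 0.

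The 3 tissues were compared for agreement. All 212 genes had the same direction in cornea, skin and tendon, against 47.2% of all genes, but a fit with tissue as a block favours such genes. Of the 146 rising genes 77 had flow libraries wholly above static libraries in all 3 tissues, 59 in 2 and 10 in 1. Of the 66 falling genes 13 were apart in 3 tissues, 43 in 2 and 10 in 1. Over all genes 0.467% were apart upward in 3 tissues and 0.104% downward. In the direction of their flow value, 466 of all 18193 genes were apart in 2 tissues and 3318 in 1. The median rise was 0.52 in cornea, 0.45 in skin and 0.53 in tendon, and the median fall -0.55, -0.47 and -0.53. The weakest tissue reached at least 0.5 times the mean response in 142 of the 146 and 60 of the 66, and in 4181 of all 18193 genes. The fit also favours genes whose libraries are apart and whose tissues have similar values. These counts use the libraries that gave the call, so they describe it and are not a further test. Fitted alone, cornea gave 5 genes, skin 6 and tendon 11, and 196 of the 212 passed in none of the single tissues.

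A reading in libraries that the call did not use is free of that preference. Genes were called in a pair of tissues and read in the third. Cornea and skin called 39 genes, cornea and tendon 41, and skin and tendon 58. All 39, 41 and 58 had the same direction in the third tissue, where 68.4%, 68.4% and 66.5% of all genes did. Read in tendon, 31 of the 39 also had an unadjusted p under 0.05 in that tissue alone, against 3.86% of all genes. Read in skin this held for 33 of 41 (3.08% of all genes), and read in cornea for 45 of 58 (4.36%). The median rise was 0.88 in the calling pair and 0.84 when read in tendon, 0.93 and 0.85 for skin, and 0.88 and 0.87 for cornea. The median fall was -0.58 and -0.45 for tendon, -0.65 and -0.37 for skin, and -0.70 and -0.62 for cornea. The third tissue shares neither static nor flow libraries with the pair, but all tissues share the array runs. Cornea flow 1 and flow 2 came from runs without a cornea static library, so the reading in cornea includes a difference of run.

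**Figure D4:**
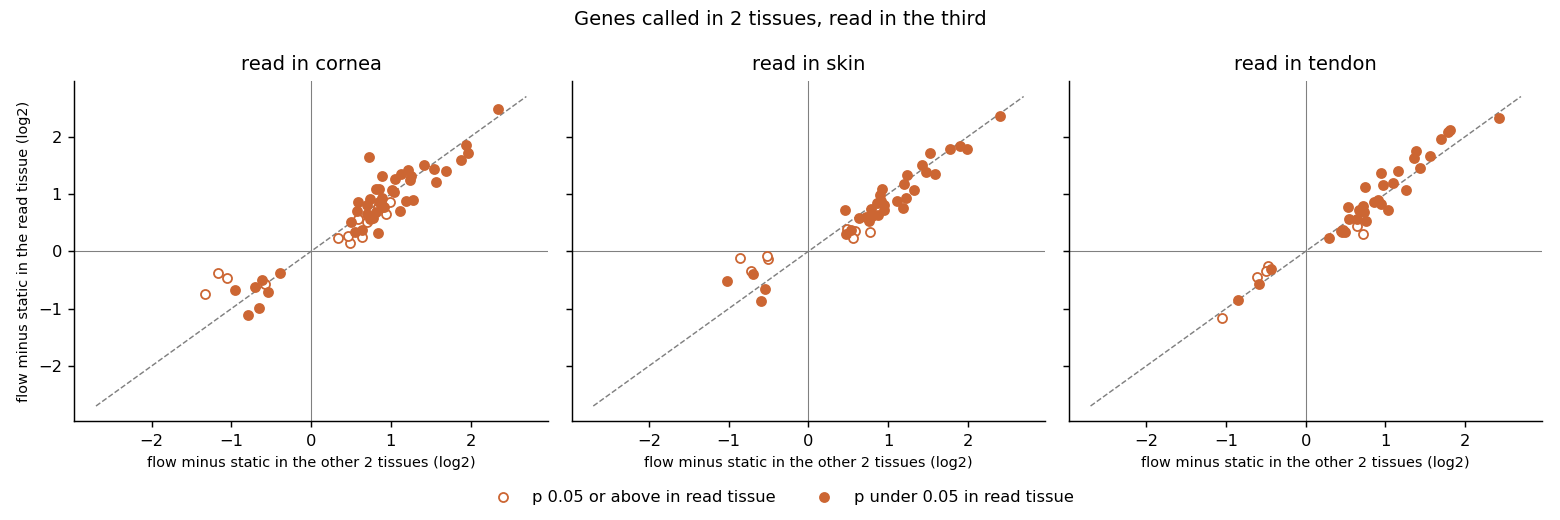
Each point is a gene called in a pair of tissues, with its flow minus static there (log2, horizontal axis) and in the third tissue (log2, vertical axis); filled points had an unadjusted limma p under 0.05 in the third tissue and the dashed line marks equal values. All 58, 41 and 39 points lie in the quadrants of equal sign, and most open points among the falls lie closer to 0 than the line.

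There were 20 genes called in each of the 3 pairs. The 19 rises were Hmox1, Srxn1, Gclm, Angptl4, Serpinb1b, Procr, Gsta4, Blvrb, Pgd, Gclc, Nqo1, Slc48a1, Abcb6, Taldo1, Cbr3, Hsph1, Pir, Layn and Stxbp5. Layn encodes layilin, a hyaluronan receptor, and rose by 0.61 ± 0.08, and Stxbp5, a syntaxin-binding protein, by 0.55 ± 0.06. The only fall was Krt19, a keratin of simple epithelia, at -0.58 (SE 0.07, adjusted p = 1.02e-04), with -0.51 in cornea, -0.66 in skin and -0.57 in tendon. Layn and Krt19 were named for this count. Among the falls read in skin, Cenpp gave -0.86 in cornea and tendon and -0.11 in skin. Among those read in cornea, Ptx3 gave -1.17 in skin and tendon and -0.38 in cornea, with an unadjusted limma p of 0.114 there.

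No gene passed the test of a difference between the tissues' responses. The limma interaction F test gave 0 genes at an adjusted p under 0.05, 118 at an unadjusted p under 0.05 (0.649% of all genes) and a smallest adjusted p of 1. With the date as a block the counts were 0 and 494 (2.715%), with a smallest adjusted p of 0.808. Both shares lie below 0.05 of the genes, the share that calibrated p-values would give with no differences. These interaction p-values are thus conservative and serve here only to order genes. Among the 212 genes 3 had an unadjusted interaction p under 0.05. Cenpp (0.00282) had its smallest fall in skin, Ahsa2 (0.00783) rose by 0.25 in cornea, 0.45 in skin and 0.83 in tendon, and Lrrc17 (0.0159) had values of -0.68 in cornea, -0.47 in skin and -1.43 in tendon. Next came Hspa1a, largest in cornea, then Adgrl2, Stxbp5, Hspb1 and Osmr, with interaction p-values of 0.0548, 0.0608, 0.0701, 0.0702 and 0.0763. The closest responses were those of Pir, Fst, Numb, Cirbp, Taldo1, Hmox1, Tmem33 and Slc22a23. The Notch inhibitor Numb rose by 0.31 ± 0.07 and Cirbp, a cold-inducible RNA-binding protein, fell by 0.38. Cirbp lost its call in 11 of 18 refits and Numb in 3, and the mean of the probe sets of Numb was 0.12 (adjusted p = 0.331). A missed threshold does not show that the tissues responded alike, with 3 libraries per group and conservative p-values.

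Several genes with small interaction p-values were not among the 212. Pcp4l1 had 0.06 in cornea, -0.09 in skin and -0.67 in tendon (unadjusted p = 0.00142), and Myct1 had -0.61 in cornea, -0.02 in skin and -0.07 in tendon (0.00465). Mroh4 (0.00612) and Ccdc201 (0.00984) had tissue values between -0.22 and 0.29. None of these had an adjusted p under 1 (limma interaction F test).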

How the data were processed

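The deposited values of each chip are log2 levels made by the authors with RMA, per the submitters' processing notes; its version is not given in the sources used here. Chips A and B were handled as separate tables. Each gene was read from 1 probe set with 1 symbol, chip A before chip B, cross-hybridising sets last, then the brightest, which gave 18193 genes (12388 on chip A). Limma 3.58.1 in R 4.3.3 fitted tissue plus state per chip (14 residual degrees of freedom), with 1 Benjamini-Hochberg adjustment over both chips. The number of arrays limits the precision of every value. On simulated data for this comparison over 18193 genes, the fit called 74 of 100 genes moved by 0.5 and 100 of 100 moved by 1, with 8 false calls. The simulated noise was independent between libraries, while real libraries that share a date or scan batch were correlated. These counts may therefore not hold for the real data.

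Replicate numbers were not used as a block: in cornea, same-numbered libraries correlated at -0.22, -0.43 and 0.41 in their deviations from group means. The 8 pairs that share a date or scan batch in the scan records correlated at 0.38 to 0.76. In 1 of these, cornea static 1 with flow 2, the libraries were hybridised in different runs, so flow and run cannot be told apart there. Cornea flow 1 was in run 1 and scan batch 1, while all cornea static libraries were in run 2 and scan batch 2. Flow and run therefore cannot be fully told apart in any cornea value. Skin static 2, noted in the scan records as perhaps more concentrated, was kept. Of the 18 libraries, 0 pairs had identical values.

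Members, gene lists and tests were chosen with earlier results of these data known. Named genes were the 15 largest rises and falls among genes with 1 direction in the 3 tissues, up to 5 called genes per list by p, the 8 called genes with the smallest interaction p, the 8 with the closest responses, the 8 smallest interaction p-values of any genes, and the 5 brightest and 5 dimmest called genes. Other names are examples picked after their values were seen, and clone names were counted only. Probe sets with several symbols or none were left out of gene results. Alternatives are in the closing section.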

Additional observations from a re-analysis of the deposited data

Results flagged for a closer look

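Among the 10096 probe sets that carry no gene symbol or several, and that were outside the gene results, 19 passed an adjusted p under 0.05 for flow with tissue as a block, 15 of them higher (limma, adjusted over all 45137 probe sets). Their values ran from -0.97 to 2.53.

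Acap2, which encodes a GTPase-activating protein of endosomes, had flow libraries below all static libraries in cornea (-0.36) and above all static libraries in skin (0.29). Nccrp1 had a value of 0.15 in cornea and -0.22 in skin, and its libraries did not overlap in either tissue. The interaction F test of limma gave them unadjusted p-values of 0.00217 and 0.00878, and an adjusted p of 1. Over all genes 42 (0.231%) had libraries apart in opposite directions in at least 2 tissues. None of the 212 changed genes could be among them, since all 212 had 1 direction in the 3 tissues. Groups of 3 libraries are too small to look for single outlying samples.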

How the results depend on the processing

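Of 81 named genes that passed, 0 changed direction without 1 library, with the date block, the probe set mean or the covariate. Of 6 that did not pass, Acap2, Mroh4 and Nccrp1, with flow values near 0, changed sign in at least 1 of these. Several refits gave counts within 1.5 times of 212. The 6-group average gave 156, scan batch as a further term 266 or as a random block 228, and run 288. Means over the probe sets of a gene gave 200. With every probe set of 1 symbol as a feature, 294 of 35041 probe sets passed, a different unit. A filter on dim genes left 10947 genes, and 183 of them passed. Median centring gave 202, repeated quantile normalization 231, a trended prior 186, array weights 284 and the beta-actin covariate 273. With the replicate block 858 genes passed, with the date beside the sample as a block 1437, and without cornea, skin or tendon 58, 41 and 39, where 6 libraries fewer were used. Leaving out 1 library gave 141 (without tendon flow 1) to 217, and 129 of the 212 passed in all 18 refits, 95 rises and 34 falls. For changes beyond 1.2-fold, the 22 genes became 38 with the replicate block, 8 at 1.5-fold, 69 with the date as a block and 17 to 27 without 1 library. The pair calls of 58, 41 and 39 became 880, 275 and 597 with the date as a block, of which 838, 272 and 569 had the same direction in the third tissue. The date block was chosen after seeing the data for all of these but the count of 1437. The interaction count stayed 0 with the replicate block (259 at an unadjusted limma p under 0.05) and without each library (88 to 297). Genes apart in 3 tissues went from 104 to 120 without tendon static 3. Of the named genes 7 lost the call with centring, 13 with the covariate, 15 with the probe set mean, 1 with the scan batch and 0 with the replicate or date block. Other probe sets of changed genes had the same direction in 187 of 224 cases and at least 0.5 times the size in 74. The cause of these shifts was not tested.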

Other observations

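Some changed genes belong to none of the lists and were picked after their values were seen. Gbe1, the branching enzyme of glycogen, rose by 0.98 ± 0.13 (1.97-fold), by 0.70 in cornea, 1.09 in skin and 1.15 in tendon. Ampd3, which deaminates AMP, rose by 0.94 ± 0.20, the ubiquitin ligase gene Nedd4l by 0.87 ± 0.15 and Tshz1, a zinc finger gene, by 0.94 ± 0.17. Cst6, a cystatin that inhibits cysteine proteases, rose by 0.65 ± 0.12. Among the falls, Osr1, a transcription factor of embryonic mesenchyme, changed by -0.72 ± 0.17, Rgs16, which shortens G protein signals, by -0.58 ± 0.13, and Socs2, an inhibitor of cytokine signals, by -0.53 ± 0.12. S1pr1, a receptor of sphingosine 1-phosphate, changed by -0.31 ± 0.07. Cavin2, a coat protein of caveolae, changed by -0.61 ± 0.14, with -0.28 in cornea, -0.68 in skin and -0.88 in tendon, and Ada, adenosine deaminase, by -0.48 ± 0.09. Each of these passed the limma fit with tissue as a block (adjusted p from 4.4e-04 for Gbe1 to 0.0393 for Socs2). Leaving out 1 library ended the call of Osr1 in 13 of 18 refits, of S1pr1 in 12, of Socs2 and Cavin2 in 10 each and of Rgs16 in 8.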
